A study of Mus musculus with 17 samples.

Results

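Ifitm1, Ifitm2 and Ifitm3 encode the interferon-induced transmembrane proteins of mouse chromosome 7. They are 3 of the 54532 genes of the RNA-seq table deposited for mouse embryonic stem cells (ESCs) with and without Usb1, a nuclear 3′ to 5′ exonuclease that trims the end of U6 small nuclear RNA. The genes were picked by symbol because their measured levels differed between the wild-type and knockout libraries, so the differences of these 3 genes are given below as a description with their standard errors and without a test. The study treated the cells with retinoic acid (RA), which drives ESCs out of pluripotency, and asked whether Usb1 is needed for that state. The 17 libraries of total RNA come from R1 ESCs that were wild-type (WT, 8 libraries) or carried a CRISPR/Cas9 disruption of Usb1 (KO, 9 libraries), before RA (day 0) and at days 1 and 3 of RA. The WT day 0 group has 2 replicates and the other 5 groups have 3 each. All KO libraries come from 1 knockout line, so an effect of the knockout and a difference that arose in that clone cannot be told apart. No untreated cells of days 1 and 3 were analysed here, so RA and time in culture cannot be told apart either, and days are named below only as days of the treatment.

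IFITM proteins are small membrane proteins that sit in the plasma membrane and in endosomes and hinder the fusion of enveloped viruses with the cell. Interferons raise their transcription through JAK kinases and a complex of transcription factors, which includes IRF9 and binds a promoter element called the interferon-stimulated response element (ISRE). Pluripotent cells express several of these antiviral genes without interferon. In the mouse embryo, Ifitm3 (also called fragilis) and Ifitm1 are known for their expression in the precursors of germ cells.

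On the GRCm38 build the 3 genes lie within 55934 bases, at chr7:140954837-141010770. Ifitm2 (ENSMUSG00000060591) occupies chr7:140954837-140955987 on the minus strand, Ifitm1 (ENSMUSG00000025491) chr7:140967221-140969825 on the plus strand and Ifitm3 (ENSMUSG00000025492) chr7:141009586-141010770 on the minus strand. Their coding sequences of 318 bases for Ifitm1, 432 for Ifitm2 and 411 for Ifitm3 were 82.1% identical between Ifitm1 and Ifitm2, 82.7% between Ifitm1 and Ifitm3 and 81.4% between Ifitm2 and Ifitm3. A stretch of 100 coding bases, each in 1 exon, is shown because it is where the transcripts are hardest to separate by their reads. The capitals mark the 13 positions at which the 3 genes are not all alike.

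Ifitm1: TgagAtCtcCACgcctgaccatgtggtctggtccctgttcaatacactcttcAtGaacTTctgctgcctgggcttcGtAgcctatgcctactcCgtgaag
Ifitm2: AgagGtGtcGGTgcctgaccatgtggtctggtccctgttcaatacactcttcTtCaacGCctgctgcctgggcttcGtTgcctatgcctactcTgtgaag
Ifitm3: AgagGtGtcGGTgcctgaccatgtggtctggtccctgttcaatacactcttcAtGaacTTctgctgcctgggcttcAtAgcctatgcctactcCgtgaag

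These stretches lie at chr7:140968339-140968438 on the plus strand for Ifitm1, chr7:140955670-140955769 on the minus strand for Ifitm2 and chr7:141010397-141010496 on the minus strand for Ifitm3. The longest run of bases shared without a mismatch by the spliced transcripts was 69 bases for Ifitm2 and Ifitm3, 64 for Ifitm1 and Ifitm3 and 40 for Ifitm1 and Ifitm2. Of all windows of 50 bases along the Ifitm2 and Ifitm3 transcripts, 3.30% and 3.18% occurred in the other gene as well, and between Ifitm1 and Ifitm2 no such window was shared. Reads that fall wholly in those short stretches could have been counted for the wrong gene.

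The DNA before the genes is shown because all 3 belong to a family named for its response to interferon. RefSeq's promoter windows, of 300 bases with 250 before and 50 after each start, were found for all 3 genes and were searched on both strands for the ISRE core GAAANNGAAA. Of 32851 mouse windows, 3.44% held it. Ifitm2 had an ISRE core that begins 46 bases before the RefSeq start, shown in capitals. Ifitm3 had 2 of them just inside its annotated first exon, 3 and 20 bases after the start of its RefSeq transcript, also in capitals. The windows were searched for a second spelling as well, TTCNNNGAA (called GAS), which 8.3% of them held. Ifitm3 held TTCTGAGAA, which begins 14 bases after the same start and is not marked by capitals of its own. The Ifitm2 window held no GAS match. The Ifitm1 window held no match, and it lies in an intron of the longest annotated Ifitm1 transcript. A match is only a match of letters, and these libraries hold no measurement of what binds there.

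Ifitm2, chr7:140955988-140956211, minus strand: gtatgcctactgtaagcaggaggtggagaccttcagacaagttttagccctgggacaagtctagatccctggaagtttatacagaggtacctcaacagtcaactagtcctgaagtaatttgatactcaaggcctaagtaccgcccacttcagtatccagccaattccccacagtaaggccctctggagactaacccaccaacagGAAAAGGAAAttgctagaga
Ifitm3, chr7:141010716-141010742, minus strand: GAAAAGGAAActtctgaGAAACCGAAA
Ifitm1, chr7:140967826-140968027, plus strand: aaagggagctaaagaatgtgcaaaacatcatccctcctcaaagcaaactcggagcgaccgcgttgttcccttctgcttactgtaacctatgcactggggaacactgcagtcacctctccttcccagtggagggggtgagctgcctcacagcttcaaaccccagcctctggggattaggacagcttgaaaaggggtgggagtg

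Levels are in TPM, a unit of transcript abundance scaled for gene length and library depth. The libraries held 15404379 to 17300186 reads on genes. Usb1 itself averaged 38.5, 52.5 and 33.8 TPM in WT cells at days 0, 1 and 3 and 16.2, 20.2 and 17.4 TPM in KO cells, lower by 1.20, 1.34 and 0.93 on the log2 scale (SE 0.12, 0.11 and 0.11, adjusted p = 3.2e-05, 2.0e-06 and 9.4e-05 by limma). WT day 0 replicate 1 stood apart, with 239 genes covered by a single read against 1352 in WT day 0 replicate 2, 1224 in KO day 3 replicate 1 and 2150 to 2467 in the other libraries. The Y-linked gene Eif2s3y averaged 63.3 to 80.8 TPM in the WT groups and had 0 reads in all 9 KO libraries, which is a difference between the cell lines outside the Ifitm locus.

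Ifitm3 had the widest differences between genotypes of the 3 genes at days 0 and 1, and at day 3 it was level with Ifitm1. Before RA its WT libraries stood at 194.8 and 196.2 TPM and its KO libraries at 904, 962 and 935 TPM. At day 1 the WT libraries were at 100.2, 103.7 and 104.3 TPM and the KO libraries at 532, 450.5 and 539 TPM. At day 3 the WT libraries were at 142, 143 and 128 TPM and the KO libraries at 357, 323 and 301 TPM. Every KO library was above every WT library of the same day, and even the lowest KO library, at day 3, was above the highest WT library, at day 0. The means were 195.5 ± 0.941 (SD, n = 2) and 934 ± 29.1 TPM (n = 3) at day 0, a ratio of 4.78, 102.7 ± 2.22 and 507 ± 49.2 TPM at day 1 (n = 3 each), a ratio of 4.94, and 137.6 ± 8.67 and 327 ± 28.0 TPM at day 3 (n = 3 each), a ratio of 2.38. On the scale log2(TPM + 1), which slightly understates a change, KO minus WT was 2.25 (SE 0.08), 2.29 (SE 0.07) and 1.24 (SE 0.07) at days 0, 1 and 3. Without WT day 0 replicate 1 the day 0 difference was 2.25.

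**Figure D1:**
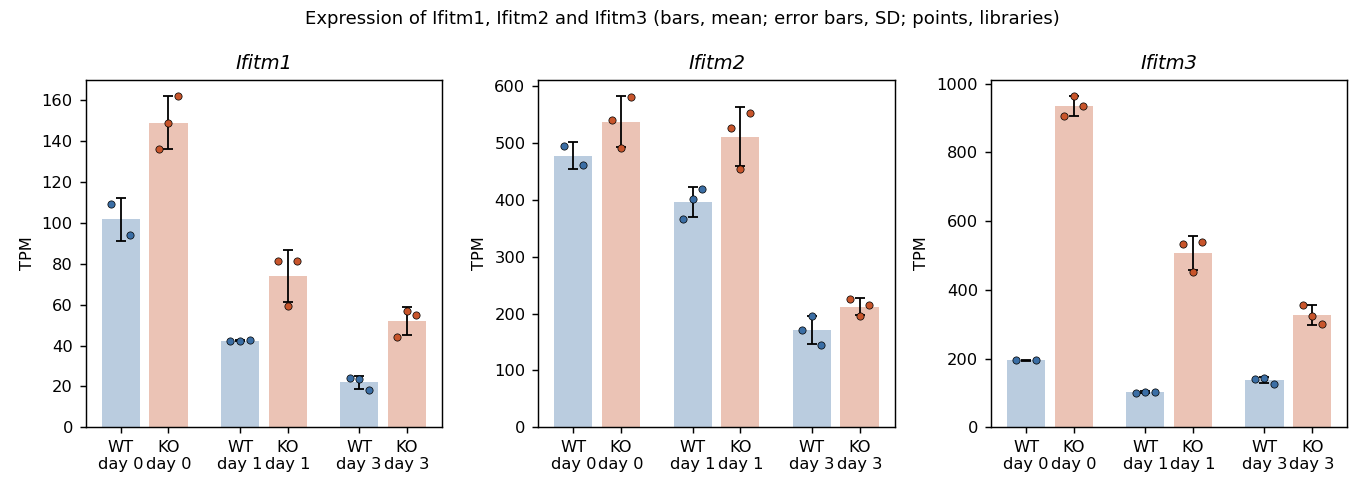
TPM of Ifitm1, Ifitm2 and Ifitm3 (vertical axes, 1 panel a gene) in the WT and KO groups at days 0, 1 and 3 of RA, with libraries as points, group means as bars and the SD as error bars. Ifitm3 separates the genotypes by 4.78 times at day 0 and 2.38 times at day 3, while the Ifitm2 libraries of both genotypes overlap at day 0.

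Over the days of RA, Ifitm3 took different paths in the 2 genotypes. In WT cells it was lower at day 1 than at day 0 by 0.92 on the log2 scale (SE 0.08) and then higher at day 3 than at day 1 by 0.42 (SE 0.07), which left it 0.51 (SE 0.08) below day 0. In KO cells it was lower at both steps, with day 1 minus day 0 at −0.88 (SE 0.07) and day 3 minus day 1 at −0.63 (SE 0.07), so that day 3 minus day 0 came to −1.51 (SE 0.07). All 3 WT day 3 libraries were above all WT day 1 libraries, and all 3 KO day 3 libraries were below all KO day 1 libraries. The step from day 1 to day 3 differed between genotypes by −1.05 (SE 0.10) and the step from day 0 to day 3 by −1.01 (SE 0.11), both as KO minus WT. The 6 group means fell in the order KO day 0, KO day 1, KO day 3, WT day 0, WT day 3 and WT day 1, and no neighbours in that order overlapped.

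Ifitm1, the gene between the others on the chromosome, was the least abundant of the 3 in every group. Before RA the WT libraries stood at 109 and 94.1 TPM and the KO libraries at 136, 148 and 162 TPM. At day 1 the WT libraries were at 42.4, 42.1 and 42.5 TPM and the KO libraries at 81.0, 59.3 and 81.4 TPM. At day 3 they were at 24.1, 23.6 and 18.4 TPM in WT and 44.3, 56.8 and 55.0 TPM in KO libraries. The groups did not overlap on any day, and KO day 1 replicate 2 stood below the other KO day 1 libraries. The group means were 101.59 ± 10.6 against 148.7 ± 12.9 TPM, 42.3 ± 0.185 against 73.9 ± 12.7 TPM and 22.0 ± 3.12 against 52.0 ± 6.79 TPM (SD, n = 3 except n = 2 for WT day 0), with ratios of 1.46, 1.75 and 2.36. KO minus WT on the log2 scale was 0.55 (SE 0.15), 0.77 (SE 0.13) and 1.20 (SE 0.13) at days 0, 1 and 3.

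Over the days of RA, Ifitm1 went down in steps in each genotype. Day 1 minus day 0 was −1.24 (SE 0.15) in WT and −1.01 (SE 0.13) in KO cells, and day 3 minus day 0 was −2.16 (SE 0.15) and −1.50 (SE 0.13). Its groups ranked KO day 0, WT day 0, KO day 1, KO day 3, WT day 1 and WT day 3, again with no overlap between neighbours. Unlike Ifitm3, the highest WT group of Ifitm1 was above the KO groups of days 1 and 3.

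Ifitm2 was the most abundant of the 3 in WT cells and the least different between genotypes. Before RA the WT libraries stood at 494 and 461 TPM and overlapped the KO libraries, at 539, 490.3 and 580 TPM. At day 1 the WT libraries were at 366, 402 and 418 TPM and the KO libraries at 526, 453 and 552 TPM. At day 3 the WT values were 172, 195 and 146 TPM and the KO values 225, 196 and 215 TPM. On days 1 and 3 the ranges did not overlap, although at day 3 the highest WT and the lowest KO library were nearly level. The means were 477 ± 23.5 against 537 ± 44.9 TPM, 395 ± 26.5 against 510.4 ± 51.4 TPM and 170.9 ± 24.8 against 212 ± 14.5 TPM (SD, same n), with ratios of 1.12, 1.29 and 1.24. KO minus WT was 0.17 (SE 0.12), 0.37 (SE 0.10) and 0.32 (SE 0.10) on the log2 scale.

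Most of the Ifitm2 change came between days 1 and 3. Day 1 minus day 0 was −0.27 (SE 0.12) in WT cells and −0.07 (SE 0.10) in KO cells, where the libraries of the 2 days overlapped. Day 3 minus day 0 was −1.49 (SE 0.12) in WT and −1.33 (SE 0.10) in KO cells. In the order of its group means, KO day 0, KO day 1 and WT day 0 came first and overlapped, and WT day 1, KO day 3 and WT day 3 followed without overlap.

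A gap between the ranges of small groups is common in this table. Every KO library was above every WT library for 15.3% of the 21871 genes tested at day 0, for 9.41% at day 1 and for 11.0% at day 3. Since the 3 genes were chosen on these libraries, nothing is read from their own counts of days without overlap. The 3 genes were also counted at different depths, from 87 reads for Ifitm1 in WT day 3 replicate 3 (95% Poisson interval 69.7 to 107) to 3117 reads for Ifitm3 in KO day 0 replicate 2 (3009 to 3228). Such intervals cover counting error only. The SD between replicates on the log2 scale, pooled over the groups, was 0.177 for Ifitm1, 0.137 for Ifitm2 and 0.0926 for Ifitm3. KO day 1 replicate 2 and WT day 3 replicate 3 were the lowest of their groups for each of the 3 genes. In the other groups the lowest library was not the same for all 3. In KO cells at day 3 it was replicate 1 for Ifitm1, replicate 2 for Ifitm2 and replicate 3 for Ifitm3. Whether the genes vary together within a library was not tested.

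The summed level of the 3 genes averaged 774, 540.2 and 331 TPM in WT and 1619, 1092 and 591 TPM in KO cells at days 0, 1 and 3. Its makeup differed between the genotypes. Ifitm3 made up 25.3%, 19.0% and 41.8% of the sum in WT cells and 57.7%, 46.5% and 55.3% in KO cells, and Ifitm2 made up 61.6%, 73.1% and 51.6% in WT and 33.1%, 46.8% and 35.9% in KO cells. Ifitm1 stayed between 6.66% and 13.1% of the sum in all 6 groups. Within a library, where depth cancels, the ratio of Ifitm3 to Ifitm2 averaged 0.410 in WT and 1.75 in KO cells at day 0, 0.260 and 0.994 at day 1, and 0.812 and 1.54 at day 3. The WT ratios ranged from 0.395 to 0.426, from 0.250 to 0.274 and from 0.733 to 0.877, and the KO ratios from 1.61 to 1.96, from 0.975 to 1.01 and from 1.40 to 1.65. The ratio was thus lowest at day 1 in both genotypes and higher in every KO library than in every WT library.

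**Figure D2:**
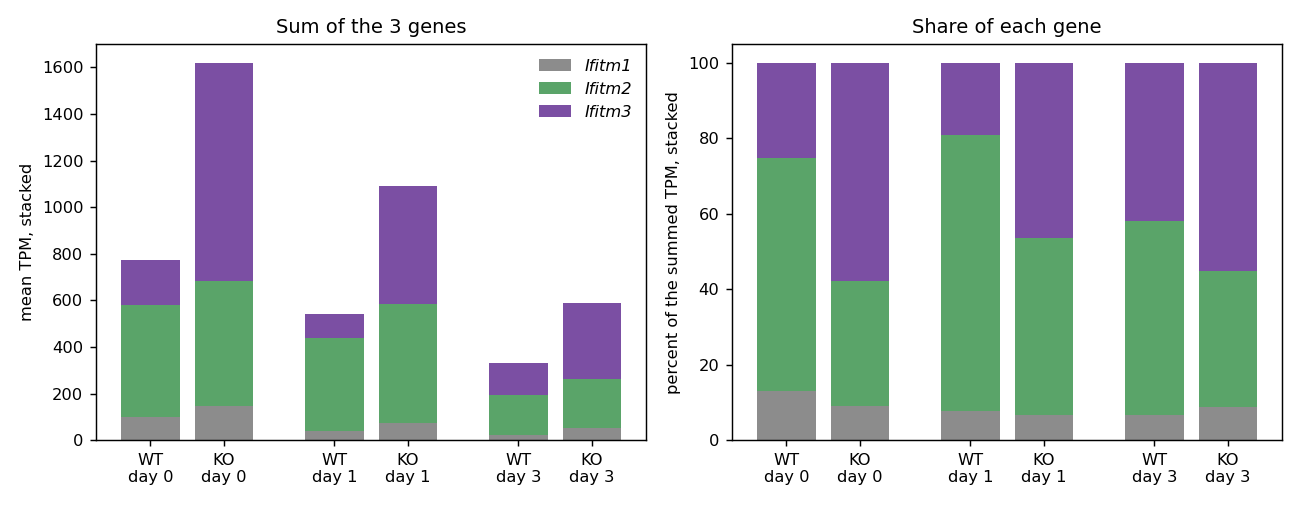
Mean TPM of Ifitm1, Ifitm2 and Ifitm3 stacked (left panel) and their shares of the summed TPM in percent (right panel) for the WT and KO groups at days 0, 1 and 3 of RA. Ifitm2 is the largest share in the WT groups, at 51.6% to 73.1%, and Ifitm3 is the largest share in KO cells at days 0 and 3, at 57.7% and 55.3%.

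Set among all genes with a mean above 0, Ifitm3 ranked 866 of 22930 in WT and 124 of 27272 in KO cells at day 0, 1894 of 28558 and 258 of 27664 at day 1, and 1223 of 27929 and 422 of 27654 at day 3. Ifitm2 ranked 261, 345 and 936 in WT and 242, 255 and 724 in KO cells. Ifitm1 ranked 1940, 4689 and 7396 in WT and 1212, 2558 and 3880 in KO cells. In undifferentiated KO cells Ifitm3 was therefore among the most abundant transcripts of the table.

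The 4 other family genes were much less abundant. They are in the list by family name rather than by a measured value, and were tested with limma. A gene was called where the adjusted p was under 0.05 and the change at least 2-fold on the log2(TPM + 1) scale. Limma called 0 of them higher in KO cells on any day, and the count was 0 at an unadjusted p under 0.05 and with voom, limma's variant for counts run on reads recovered from the TPM values, against 1.60%, 0.462% and 0.521% of all genes tested at days 0, 1 and 3. Ifitm7, which lies on chromosome 16 at chr16:13981699-13986888, was lower in KO cells at day 0 (6.01 against 2.01 TPM, log2 difference −1.21, SE 0.29, adjusted p = 0.0147) and at day 1 (10.8 against 4.52 TPM, −1.10, SE 0.26, adjusted p = 0.00904). The day 0 call did not hold without WT day 0 replicate 1 (−1.07) or in a fit of only the libraries compared (−1.215). The day 1 call did not hold under quantile normalization (−0.90). All genes called lower made up 1.45%, 1.76% and 0.773% of those tested at the 3 days. At day 3 Ifitm7 averaged 2.22 TPM in WT and 2.23 TPM in KO cells, and in WT cells it fell by 1.12 on the log2 scale from day 0 to day 3 (SE 0.29, adjusted p = 0.00416; −0.97 and not called without WT day 0 replicate 1).

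Ifitm5, which is known for its role in bone and sits next to Ifitm2, averaged 15.8 TPM in WT and 16.4 TPM in KO cells at day 0, and 2.46 and 3.88 TPM at day 3. It fell from day 0 to day 3 by 2.31 (SE 0.39, adjusted p = 1.5e-04) in WT and by 1.94 (SE 0.35, adjusted p = 2.6e-04) in KO cells. Ifitm6, next to Ifitm3, averaged 1.62 and 3.71 TPM at day 0, with 0 reads in WT day 0 replicate 1 and 13 in replicate 2, and it fell in KO cells from day 0 to day 3 by 1.86 (SE 0.53, adjusted p = 0.0083). Ifitm10 had 0 reads in both WT day 0 libraries and averaged 1.09 and 1.39 TPM at days 1 and 3 in WT, and 0.172 and 1.12 TPM in KO cells. At day 1 Ifitm10 was lower in KO cells (log2 −0.84, SE 0.22, adjusted p = 0.0162 by limma), which is below 2-fold and not called. Voom called 1, 2 and 0 of the 4 other family genes lower in KO cells at days 0, 1 and 3. Among the wider CD225 superfamily, to which the IFITM proteins belong, 5 of 7 genes passed the filter, and limma and voom called 0 higher in KO cells on any day, with 0 higher at an unadjusted p under 0.05. With 1.60%, 0.462% and 0.521% of all genes called higher at days 0, 1 and 3, a count of 0 among 5 is near that background. Tmem233 was called lower in KO cells at day 0 (1.78 against 0.0583 TPM, −1.36, SE 0.26, adjusted p = 0.0049). This call was lost without WT day 0 replicate 1 (−1.05) and in a fit of only the libraries compared (−1.36). Tmem233 and Syndig1 fell in WT cells by 1.44 and 1.66 between days 0 and 3.

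No gene around the cluster was called between the genotypes, and with shares of 1.60%, 0.462% and 0.521% called higher and 1.45%, 1.76% and 0.773% called lower over all genes, a count of 0 among so few genes is near that background. Of 21 other annotated genes within 100000 bases of the 3, 17 passed the filter and limma and voom called 0 of them between KO and WT cells on any day. At an unadjusted p under 0.05, 2, 3 and 1 of them were higher and 0, 0 and 5 lower at days 0, 1 and 3. Their log2 differences ranged from −0.27 to 1.85 at day 0, from −0.94 to 0.40 at day 1 and from −0.78 to 2.20 at day 3, and the 2 highest values are those of Gm24962, a small nuclear RNA gene with at most 10 reads in a library. The nearest tested gene on each side, Ifitm5 and Ifitm6, differed by 0.04 (SE 0.39) and 1.16 (SE 0.59) at day 0, and the abundant neighbours Psmd13, a proteasome subunit gene, and B4galnt4 differed by −0.01 (SE 0.07) and 0.16 (SE 0.08). Below 2-fold, 1 neighbour passed an adjusted p of 0.05 at day 1, Psmd13 (0.24, adjusted p = 0.011), and 3 passed it at day 3, Sigirr (−0.52, adjusted p = 0.0022), Ano9 (−0.50, adjusted p = 0.0114) and Pkp3 (−0.52, adjusted p = 0.0361). The others tested were Gm45785, Bet1l, Ric8a, Sirt3, Gm15542, Cox8b, Nlrp6, Pgghg and Gm45299. From day 0 to day 3, 4 of the 17 fell in WT cells (Sirt3, Nlrp6, Ifitm5 and B4galnt4) and 7 fell in KO cells (Nlrp6, Ifitm5, Ifitm6, Gm45299, B4galnt4, Sigirr and Ano9), against 9.68% and 8.04% of all genes tested. Gm45717, a gene model that overlaps both Ifitm5 and Ifitm2, had at most 1 read in any library.

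**Figure D3:**
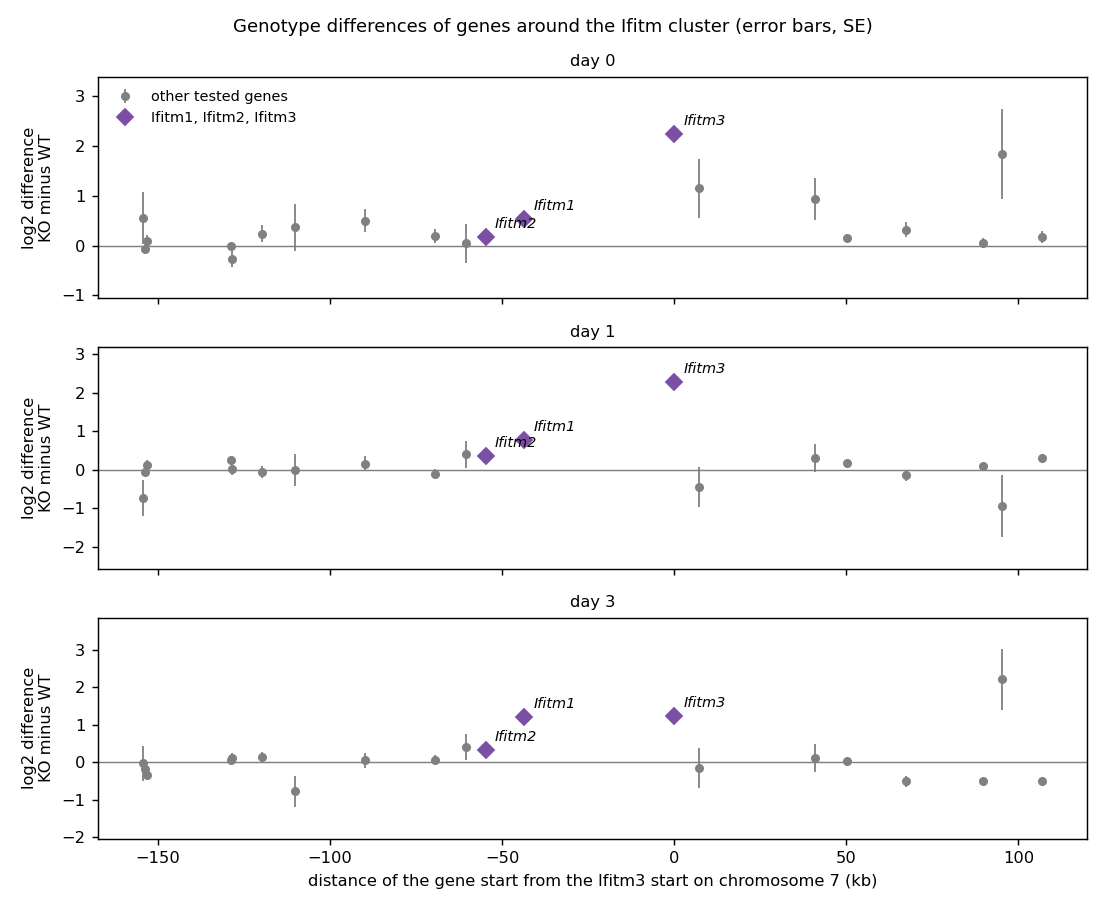
Log2 difference between KO and WT cells (vertical axes) of Ifitm1, Ifitm2, Ifitm3 (diamonds) and the tested genes within 100000 bases (circles), against distance from the start of Ifitm3 in kb, at days 0, 1 and 3, with error bars of 1 SE. Ifitm3 stands at 2.25 and 2.29 at days 0 and 1, and no neighbouring gene was called on any day.

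The question then was whether other parts of the interferon pathway changed beside the Ifitm genes. Of 10 interferon genes looked up, including Ifnb1, Ifng and 4 Ifna genes, none passed the filter, 8 had 0 reads in all libraries, and the others, Ifnk and Ifnl3, had at most 4 and 1 reads. The receptor chains were all measured. Ifnar1, which binds type I interferons with Ifnar2, averaged 27.5, 42.4 and 71.5 TPM in WT and 24.0, 32.5 and 69.3 TPM in KO cells at days 0, 1 and 3. Of the 6 receptor genes (Ifnar1, Ifnar2, Ifngr1, Ifngr2, Ifnlr1 and Il10rb), 0 were called between KO and WT cells on any day by limma or voom, with 1, 2 and 0 lower and 0 higher at an unadjusted p under 0.05 at days 0, 1 and 3. Their median log2 differences were −0.16, −0.30 and −0.08, beside 0, −0.13 and 0 over all genes. The shares called over all genes were 1.60%, 0.462% and 0.521% higher and 1.45%, 1.76% and 0.773% lower. A count of 0 among 6 genes is near that background. From day 0 to day 3, 5 of the 6 rose in WT cells and 5 rose in KO cells, against 16.1% and 13.8% of all genes tested. Ifngr1, a chain of the interferon gamma receptor, rose already by day 1, by 1.67 (SE 0.16, adjusted p = 2.0e-06) in WT and by 1.57 (SE 0.14, adjusted p = 1.6e-06) in KO cells.

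Of 18 signalling genes 17 passed the filter (all but Irf7), and limma called 0 of them between KO and WT cells on any day. At an unadjusted p under 0.05, 0 were higher on any day and 3, 8 and 3 were lower, and voom called 2 higher at day 0. Their median log2 differences were −0.13, −0.28 and −0.10, beside 0, −0.13 and 0 over all genes. Below 2-fold, 2, 5 and 0 of the 17 passed limma's adjusted p of 0.05 at days 0, 1 and 3, all lower in KO cells. At day 0 these were Jak2 (−0.54, adjusted p = 0.0106) and Irf1. At day 1 they were Socs3 (−0.86, adjusted p = 3.0e-05), Jak2, Stat2, Irf1 and Pias1. The day 1 response of Socs3 differed between genotypes by −0.88 (SE 0.14, adjusted p = 0.00616 by limma), also below 2-fold. Irf9, a subunit of the complex that binds the ISRE, averaged 18.9, 13.4 and 20.7 TPM in WT and 15.2, 9.70 and 17.2 TPM in KO cells at days 0, 1 and 3. The inhibitor Socs3 was the gene of this list that moved most between days, from 240 to 22.2 TPM in WT and from 244 to 11.8 TPM in KO cells by day 1 (log2 −3.38, SE 0.10, and −4.26, SE 0.09, adjusted p = 2.0e-11 and 5.9e-13). The kinase gene Jak2, Irf2, Usp18 and Pias1 rose in each genotype between days 0 and 3, of which the WT call for Pias1 (1.04) was lost under quantile normalization (0.94), without WT day 0 replicate 2 (0.83) and without WT day 3 replicate 3 (0.98). Jak1, Tyk2, Stat2, Irf1, Irf3, Irf5, Irf8, Socs1 and Ptpn2 passed the filter and were not called in any comparison. Of 11 genes of nucleic acid sensing 8 passed the filter, and limma called 0 between KO and WT cells, with 1, 0 and 1 higher and 3, 1 and 1 lower at an unadjusted p under 0.05 and 1 lower at day 3 with voom. Among all genes tested, 1.60%, 0.462% and 0.521% were called higher and 1.45%, 1.76% and 0.773% lower at days 0, 1 and 3. Counts of 0 among the 17 signalling and 8 sensing genes are near that background. Ddx58, which encodes the RNA sensor RIG-I, fell by day 1 by 2.01 (SE 0.15, adjusted p = 1.9e-07) in WT and by 1.80 (SE 0.14, adjusted p = 2.3e-07) in KO cells and averaged 9.89 and 10.4 TPM at day 3, against 8.87 and 9.31 TPM at day 0. By day 3 Mb21d1, which encodes the DNA sensor cGAS, fell by 1.97 in WT and 1.52 in KO cells, and Tmem173, which encodes STING, rose by 1.02 and 1.16. Under quantile normalization both Tmem173 calls were lost (0.84 and 0.90), and the WT call was lost without WT day 0 replicate 1 (0.94).

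Of 66 other interferon-stimulated genes 46 passed the filter, and classic ones such as Ifit1, Ifit3, Mx1, Mx2 and Rsad2 did not. Limma called none of the 46 higher in KO cells on any day, and 1 was called lower on each day, against 1.60%, 0.462% and 0.521% called higher and 1.45%, 1.76% and 0.773% called lower over all genes tested, which is close to these counts for 46 genes. At an unadjusted p under 0.05, 6, 3 and 5 were higher and 6, 12 and 9 lower at days 0, 1 and 3, and voom called 1, 0 and 0 higher. Their median log2 difference was 0.02, −0.16 and 0.07, beside 0, −0.13 and 0 over all genes. Of the 46 log2 differences, 25, 15 and 28 were above 0 and 21, 31 and 18 below 0 at days 0, 1 and 3. Ifitm3 was chosen because it differed, so its ratios of 2.38 to 4.94 cannot be weighed against this list. The part of interferon in its level was not tested.

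The gene called lower differed from day to day. At day 0 it was Oas2, an enzyme that activates RNase L, at 15.6 ± 0.203 TPM in WT (SD, n = 2) and 6.23 ± 1.45 TPM in KO cells (n = 3, log2 −1.21, SE 0.27, adjusted p = 0.0109 by limma). This call did not hold without WT day 0 replicate 1 (log2 −1.20), with a pseudocount of 0.1 (−1.33) or with only the libraries compared (−1.215). At day 1 it was Helz2, a helicase gene, at 30.5 ± 5.48 TPM in WT and 10.9 ± 1.74 TPM in KO cells (n = 3 each; log2 −1.40, SE 0.22, adjusted p = 6.3e-04 by limma). At day 3 it was Cxcl10, a chemokine gene that interferon gamma induces, at 25.2 ± 0.963 TPM in WT and 8.99 ± 0.675 TPM in KO cells (n = 3 each; log2 −1.39, SE 0.16, adjusted p = 7.7e-05 by limma), a call that was lost with a pseudocount of 0.1 (log2 −1.48). Cxcl10 was at most 0.201 TPM in any library at day 0, so it appeared during the treatment in both genotypes and reached a lower level in KO cells.

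**Figure D4:**
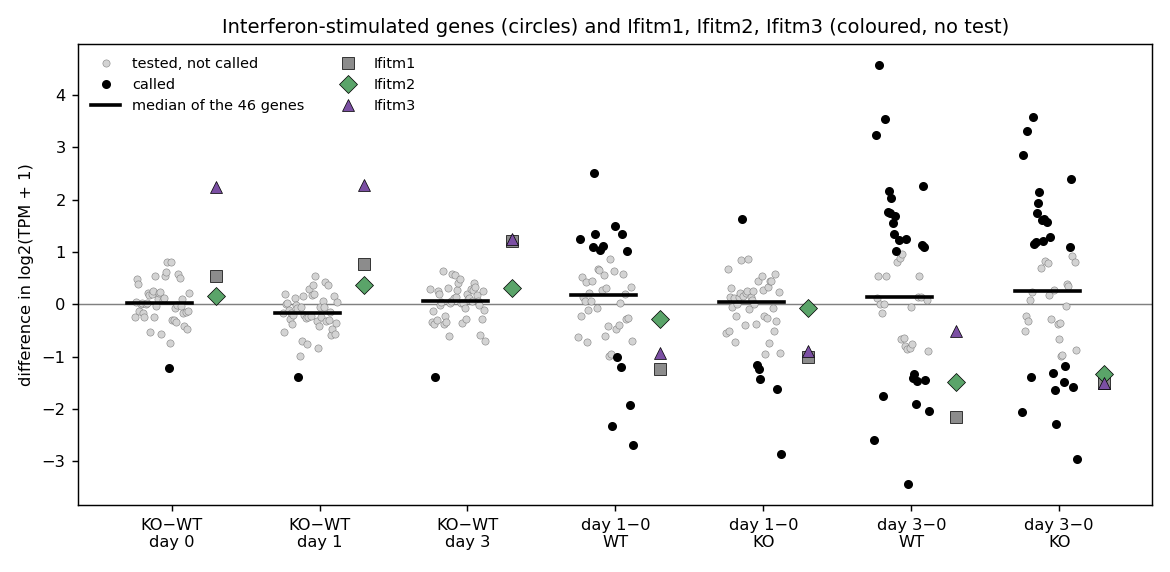
Differences in log2(TPM + 1) (vertical axis) between KO and WT cells at each day and between days in each genotype, for the 46 tested interferon-stimulated genes (circles, black where called, with the median as a line) and for Ifitm1, Ifitm2 and Ifitm3 (coloured symbols, no test). Between KO and WT cells the medians of the 46 are 0.02, −0.16 and 0.07, and Ifitm3 stands at 2.25, 2.29 and 1.24.

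Between the days of RA, interferon-stimulated genes moved both ways. From day 0 to day 1, 9 of the 46 rose and 5 fell in WT cells, and 1 rose and 5 fell in KO cells, against 9.99% and 3.88% of all genes tested in WT and 4.07% and 2.87% in KO cells. From day 0 to day 3, 16 (34.8%) rose and 9 (19.6%) fell in WT cells, and 15 (32.6%) rose and 9 (19.6%) fell in KO cells. The shares over all genes tested were 16.1% and 9.68% in WT and 13.8% and 8.04% in KO cells. B2m, the light chain of MHC class I, rose by day 3 from 27.5 to 269 TPM in WT cells (log2 3.25, SE 0.12, adjusted p = 2.6e-11) and by 2.86 (SE 0.11, adjusted p = 2.6e-11) in KO cells. Gbp2, a guanylate-binding protein gene with 0 TPM in all libraries of day 0, averaged 10.7 TPM in WT and 11.1 TPM in KO cells at day 3. Helz2 rose by day 1 by 2.51 (SE 0.24, adjusted p = 2.0e-06) in WT and by 1.63 (SE 0.22, adjusted p = 5.4e-05) in KO cells, and Oasl1 and Psmb9 rose by 1.50 and 1.35 in WT cells, of which the Psmb9 value was 0.34 without WT day 0 replicate 1. The WT calls of day 1 for Ifi27 and Irgm2 were also lost without that library (0.995 and 0.90). Those for Igtp and Tap1 were lost without WT day 0 replicate 2 (0.29 and 0.79). The WT rises by day 1 thus rest in part on single libraries of day 0.

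On the falling side, Oas2 fell by day 3 by 3.45 in WT and by 2.30 in KO cells, Apobec3, a cytidine deaminase gene, by 2.60 and 2.06, and Xaf1, a gene of apoptosis control, by 2.04 and 2.96. Xaf1 and Tor3a had already fallen by day 1, by 2.69 and 1.93 in WT and by 2.86 and 1.62 in KO cells. The difference of the day 1 responses was called by limma for 0 of the 46, with 4 higher and 9 lower at an unadjusted p under 0.05 and 0 with voom, against 0.860% of all genes tested. For the day 3 responses it was called for 1, Cxcl10, against 2.42% of all genes tested. Oas1a and Oas1g are near-identical copies, and their values are uncertain for that reason.

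Genes whose products modify or bind IFITM proteins gave no call between genotypes, a count near the background for 10 genes. Among all genes tested, 1.60%, 0.462% and 0.521% were called higher and 1.45%, 1.76% and 0.773% lower at days 0, 1 and 3. All 10 (among them Zdhhc20, which attaches palmitate, Nedd4, a ubiquitin ligase, and Setd7, a methyltransferase) passed the filter, and limma and voom called 0 between KO and WT cells on any day, with 1, 0 and 0 higher and 1, 5 and 3 lower at an unadjusted p under 0.05. Setd7 rose from day 0 to day 3 in both genotypes, from 4.30 to 19.9 TPM in WT (log2 1.97, SE 0.19, adjusted p = 5.5e-07) and from 4.38 to 19.4 TPM in KO cells (1.90, SE 0.17, adjusted p = 2.3e-07). Abhd16a, Fyn and Atp6v0b rose by 1.17, 1.10 and 1.00 in WT cells as well, and without WT day 0 replicate 1 the calls for Abhd16a and Atp6v0b were lost (1.00 and 0.98, just under 2-fold).

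Because Ifitm1 and Ifitm3 are known from germ cell precursors, 8 genes of germ cell specification were looked at beside them. This list was chosen with earlier results of these data known, so its counts beside all genes are a description. At day 3, 3 of the 8 were called higher in KO cells, against 0.521% of all genes tested, and 0 were called lower by limma or voom, with 1 lower at an unadjusted p under 0.05. The list as a whole was divided, with 4 log2 differences above and 4 below 0 and a median of −0.07. The others at day 3 were Dppa3 (−0.29), Nanos3 (−0.32), Dnd1 (−0.15), Kit (−0.27) and Alpl (0.00), none of them called. Tfap2c, a transcription factor of that lineage, was at 5.69 ± 1.27 TPM in WT and 21.4 ± 0.861 TPM in KO cells (log2 1.76, SE 0.16, adjusted p = 4.1e-07 by limma, n = 3 each), Prdm1 at 0.327 and 3.25 TPM (1.66, adjusted p = 1.3e-04) and Prdm14 at 0.946 and 4.19 TPM (1.44, adjusted p = 4.3e-05). At days 0 and 1 the only call in this list was Dppa3, a maternal and germ cell factor, at 0.127 and 4.63 TPM at day 0 (2.32, SE 0.44, adjusted p = 0.0047) and at 1.07 and 3.62 TPM at day 1 (1.37, SE 0.40, adjusted p = 0.029). The day 1 call was lost under 7 alternatives, which were a pseudocount of 0.1, a fit of only the libraries compared, and leaving out WT day 1 replicate 1 or 2 or any of the KO day 1 libraries, with values from 0.96 to 2.74. The day 0 call was lost with only the libraries compared. Over the days, Prdm14 went from 51.7 to 0.946 TPM in WT and from 57.0 to 4.19 TPM in KO cells, so Prdm14 was higher in KO cells at a time when it had fallen in both genotypes.

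Marker sums of several cell types also differed between days, and some of them between genotypes. In bulk RNA a change in the share of cells of a type and a change of RNA per cell cannot be told apart. The summed TPM of 6 pluripotency markers was 5063 to 5152 in WT and 4927 to 5394 in KO cells at day 0, 2836 to 2922 and 3587 to 3678 at day 1, and 312 to 353 and 510 to 578 at day 3, none of them at 0. In every library of day 0 the defining markers Pou5f1 and Nanog were at no less than 1280 and 764 TPM, as pluripotent cells would have them. The sum of 6 primitive endoderm markers was 11.4 to 25.6 and 9.60 to 10.9 at day 0, 78.7 to 81.0 and 20.2 to 23.2 at day 1, and 549 to 598 and 276 to 317 at day 3 in WT and KO cells. The sum of 6 fibroblast markers was 5.54 to 7.53 and 7.25 to 9.57 at day 0, 9.70 to 11.6 and 5.84 to 7.08 at day 1, and 48.1 to 56.0 and 74.2 to 85.6 at day 3. That of 4 neuroectoderm markers was 14.3 to 19.0 and 20.96 to 24.2, 35.02 to 36.7 and 32.3 to 33.4, and 87.1 to 94.3 and 109 to 130. Both sums were higher in WT cells at day 1 and in KO cells at day 3. The rise of the neuroectoderm sum was not shared by all its markers. Of the 4, 3 passed the filter, and from day 0 to day 3 limma called 1 higher and 1 lower in each genotype. Shares over all genes tested were 16.1% higher and 9.68% lower in WT and 13.8% and 8.04% in KO cells.

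Ifitm genes are also abundant in immune cells. Of the 5 immune markers, Ptprc, which marks leukocytes, had 1 read in 1 library, and the macrophage gene Adgre1 had 0 in all. The other 3, Cd68, Csf1r and Cd3e, passed the filter. From day 0 to day 3 limma called 1 of these 3 higher and 1 lower in WT cells. In KO cells it called 0 higher and 1 lower. Shares over all genes tested were 16.1% higher and 9.68% lower in WT and 13.8% and 8.04% in KO cells. The sum of the 5 immune markers, nearly all of it Cd68, was 54.6 to 63.3 TPM in WT and 40.8 to 50.2 TPM in KO cells at day 0, 36.5 to 43.1 and 29.7 to 39.2 TPM at day 1, where they overlapped, and 30.2 to 34.4 and 19.9 to 24.6 TPM at day 3. The sum of 4 endothelial markers was 44.6 to 44.9 and 54.9 to 66.1 TPM at day 0, 75.3 to 86.2 and 72.0 to 84.1 TPM at day 1, and 9.14 to 11.2 and 16.3 to 18.1 TPM at day 3. The fall of this sum to day 3 was not shared by all 4 markers. In WT cells the log2 change was above 0 for 2 and below 0 for 2, with 0 called higher and 1 lower by limma. In KO cells it was above 0 for 3 and below 0 for 1, with 1 called higher and 1 lower. The shares over all genes are those given above for the immune markers. The sums of 5 primitive streak and mesoderm markers overlapped between the genotypes at days 0 and 3. At day 1 they were 8.11 to 9.77 TPM in WT and 10.8 to 11.2 TPM in KO cells. Those of 4 trophectoderm markers overlapped at day 0, at 1.89 to 3.94 TPM in WT and 1.80 to 2.63 TPM in KO cells. They were 4.05 to 4.91 and 1.61 to 2.48 TPM at day 1, and 64.6 to 73.2 and 78.3 to 83.4 TPM at day 3. The part of these marker differences in the Ifitm levels was not tested.

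Each gene had its own set of genes with a like pattern over the 17 libraries, among 11913 genes with a mean of at least 10 TPM in some group. For Ifitm2 these were Pno1 (Pearson r = 0.990 on the log2(TPM + 1) scale), Lyar (0.988), Sephs2 (0.985), Prps1 (0.984) and Eif2s2 (0.983). For Ifitm1 they were Bzw2 (0.978), Tkt (0.969), Lefty2 (0.964), Ybx3 (0.960) and Nifk (0.951). For Ifitm3 they were Adk (0.928), Ddx49 (0.925), the mitochondrial ribosomal RNA gene mt-Rnr1 (0.923), Rhox5 (0.919) and Parp16 (0.909). The 3 genes correlated with each other at 0.818 for Ifitm1 and Ifitm2, 0.769 for Ifitm1 and Ifitm3 and 0.487 for Ifitm2 and Ifitm3. These values are descriptive, since all points share the same libraries and groups. Rhox5, an X-linked homeobox gene, shared the genotype split of Ifitm3 but not its time course, at 40.1, 36.0 and 36.0 TPM in WT and 226, 205 and 180 TPM in KO cells at days 0, 1 and 3.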

How the data were processed

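The deposited table holds 1 TPM value per gene and library, which the authors made from RNA-seq read counts and gene lengths. RNA was prepared with a column kit and NEBNext Ultra libraries were sequenced on a NovaSeq. The submitters' processing notes name HISAT2 2.1.0, StringTie 1.3.6 and GRCm38. How reads that fit several gene copies were counted is not given in the sources used here. The study describes the libraries as biological replicates of 1 WT and 1 KO line, and p-values measure the spread between these samples.

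Groups were taken from the sample labels. Genes that reached 1 TPM in 2 or more of the 17 libraries (21871) were fitted on log2(TPM + 1) with limma 3.58.1 in R 4.3.3, with 6 group means, an intensity trend and Benjamini-Hochberg adjustment, and the code was tested on simulated data. Calls need an adjusted p under 0.05 and a 2-fold change. Reads were recovered from the TPM steps and GENCODE M21 exon lengths (95.9% to 96.7% of values whole within 0.01) and gave the depths, Poisson intervals and a voom alternative. The members and all 16 lists were chosen with earlier results of these data known. Named are the 3 genes, tested genes of the other Ifitm, receptor and signalling lists, in the other lists up to 3 called genes with the largest rise and fall per comparison, annotated neighbours, Usb1, and the 5 genes with the highest r per member. Eif2s3y, Zdhhc20, Nedd4, Oas1a, Oas1g, Ifi27, Irgm2, Igtp, Tap1, Gm45717, the interferon genes and the marker genes were named after their values were seen. Some genes of the signalling list are not reported here by name. Sequences are from the GRCm38 genome and RefSeq's GRCm38.p6 promoter table, handled with Python 3.11.15 and Biopython 1.88. Alternatives were a pseudocount of 0.1, no filter and a filter at 5 TPM, quantile normalization, voom on the recovered reads, a fit of the compared libraries alone, the replicate number as a block, and leaving out each library. DESeq2, which the study used on its counts, was not run on these TPM values.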

Additional observations from a re-analysis of the deposited data

Results flagged for a closer look

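Ifitm3 moved in opposite directions between days 1 and 3: it was higher at day 3 in all 3 WT libraries and lower in all 3 KO libraries than in every day 1 library of its genotype, a difference of the changes of −1.05 on the log2 scale (KO minus WT). This difference was not tested, because the gene was chosen on these values.

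For 6 genes of the lists the day 3 response differed between genotypes by limma's interaction term, as KO minus WT. Cxcl10 rose less in KO cells, by −1.26 (SE 0.24, adjusted p = 0.0071), and was not called with a pseudocount of 0.1 (−0.68), quantile normalization (−0.98) or voom (−0.37). The germ cell genes Prdm1, Prdm14 and Tfap2c came down less in KO cells, by 1.28, 1.30 and 1.12. The value was 0.94 for Prdm1 without WT day 0 replicate 1 and 0.96 for Tfap2c without WT day 3 replicate 1, and neither was then called. Dppa3 differed by −2.61 (SE 0.60, adjusted p = 0.0205), having been at 4.63 TPM in KO and 0.127 TPM in WT cells at day 0, and was not called without WT day 0 replicate 1 (−2.45) or WT day 3 replicate 1 (−2.54). Tmem233 differed by 1.44 (SE 0.35, adjusted p = 0.0277), with at most 1.78 TPM as a group mean; its call was lost under 7 alternatives, with values from 1.13 to 4.15.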

How the results depend on the processing

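The 25 log2 differences of Ifitm1, Ifitm2 and Ifitm3 gave 600 values under the alternatives, of which 599 kept their direction and 595 stayed within 1 SD of the reported value. The exception in direction was Ifitm2 from day 0 to day 1 in KO cells, at 0.0098 without 1 library. Voom moved Ifitm3 to 2.40 for KO minus WT at day 1, to −0.74 for day 3 minus day 1 in KO cells and to −1.15 for the difference of those changes, and quantile normalization moved its day 3 minus day 0 to −0.39 in WT and −1.39 in KO cells; the cause was not tested. Over all alternatives Ifitm3 KO minus WT ranged from 2.23 to 2.33 at day 0, 2.24 to 2.40 at day 1 and 1.18 to 1.30 at day 3.

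Among the 46 interferon-stimulated genes, 1 was called between genotypes at each day. At day 0 this became 2 with a pseudocount of 0.1, 3 with voom, 0 with only the libraries compared, 5 by adjusted p alone and 0 to 4 on leaving out a library (0 without WT day 0 replicate 1, 4 without WT day 0 replicate 2). At day 1 it became 2 with a pseudocount of 0.1, 2 with voom, 9 by adjusted p alone and 1 to 2 on leaving out a library (2 without KO day 1 replicate 3), and at day 3 it became 2 with voom and 8 by adjusted p alone. From day 0 to day 1 the 14 calls in WT became 9 with a filter at 5 TPM and 25 by adjusted p alone, and the 6 calls in KO became 21 by adjusted p alone, as the 24 from day 0 to day 3 in KO became 38. The difference of the responses went from 0 to 3 calls at day 1 (without WT day 0 replicate 2) and from 1 to 6 by adjusted p alone at day 3, with 1 to 4 on leaving out a library (4 without WT day 0 replicate 2, 2 without WT day 3 replicate 1 or KO day 3 replicate 1).

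Same-numbered replicates did not deviate together (median r −0.0035 over 40 pairs, 1 of them over 0.1). The median was 0.00435 over 80 pairs with other numbers. The check over all genes gave no sign of pairing by number, but it cannot exclude a shared batch. With the replicate block, Ifitm3 KO minus WT was 2.26, 2.29 and 1.24 at days 0, 1 and 3. Of 150 called results of single list genes, 1 lost its call with the replicate block and none changed direction under any alternative. Genes below about 1 TPM rest on few reads.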
